A study of Mus musculus with 5 samples.

Results

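Cancer-associated fibroblasts (CAFs) are the contractile, matrix-producing stromal cells of tumors. Here myosin IIA KO CAFs, cultured from a mouse tumor, were compared with Cre- control CAFs over 13326 genes of the 54636 in the table. A gene entered when either library held it at 1 CPM or above, where CPM is counts per 1e+06 of the library after TMM scaling (trimmed mean of M values). Both cultures came from αSMA-CreERT2; R26mT/mG; myosin IIA fl/fl mice, in which both alleles of Myh9 are floxed and the smooth muscle actin promoter can drive an inducible Cre, so the floxed alleles and the mT/mG reporter belong to the strain of both. The KO culture carried the Cre and the control culture did not. The labels give tamoxifen treatment of cultured cells for both, SV40 immortalization for both, and a subcutaneous rectal tumor as their tissue. By the paper's methods, however, tumors in this strain grew from organoids of mouse intestinal tumors. The organoids were injected into the interscapular fat pad of mice that had been irradiated and given bone marrow. A figure caption of the paper calls this engraftment subcutaneous, as the labels do. The paper names rectal cancers as the source of its xenografts. Each group was 1 library of 1 culture, so Cre presence, the mouse, the outgrowth and the loss of myosin IIA cannot be told apart, and no p-value, replicate error or test of a difference is given. The other 3 libraries of the series, Fn1 siRNA, control siRNA and untreated CAFs of WT genotype from patient-derived xenografts (PDX CAFs), are given alongside as levels.

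Myosin IIA is the nonmuscle motor that pulls on actin filaments in stress fibers. Tension on actin is known to free the coactivators MRTF-A and MRTF-B for the nucleus, where they act with SRF on genes of actin, calponin and other contractile proteins through a sequence called the CArG box. In mesenchymal progenitors, round shape and low tension are known to favor fat cell formation, in which PPARγ and C/EBPα switch on genes of lipid uptake, storage and breakdown. The comparison asked how far the RNA of CAFs differed, beyond CAF subtype markers, where the main motor of their contraction was deleted.

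The KO library held 26347117 counts and the Cre- control library 26212033 counts. A level of 3 counts, which a count of 0 still allows, was 0.108 CPM in KO and 0.115 CPM in Cre- control CAFs. Log2 ratios are KO over Cre- control with 0.5 counts added, and their 95% intervals are exact binomial intervals that cover counting error only. The median log2 ratio over all genes was -0.01 and the middle 50% of genes lay between -0.18 and 0.17. Over 2-fold higher in KO CAFs were 439 genes, 3.29% of those compared, and over 2-fold lower 226 genes, 1.70%. The whole 95% interval lay beyond 2-fold for 223 and 83 of them. Counts of list members below use the ratio alone unless an interval is given. Beyond 4-fold were 123 genes higher and 35 lower, and of 2325 genes at 100 CPM or more in either library, 31 were over 2-fold higher and 16 over 2-fold lower. These percentages are the background against which every count of list members below is to be read.

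The deleted gene came first as a check of the labels. Myh9 (ENSMUSG00000022443, chromosome 15, 77760587 to 77842175, minus strand, mm10), which encodes the myosin IIA heavy chain, was at 425 CPM in KO and 2419 CPM in Cre- control CAFs, 5.69-fold lower. It was at 3666, 3416 and 2161 CPM in Fn1 siRNA, control siRNA and untreated PDX CAFs, so the KO library alone stood low. Counts cover the whole gene and not the floxed part. Per kilobase of gene length, Myh9 was at 32.9 CPM per kb in KO and 187 CPM per kb in Cre- control CAFs. Myh10, the heavy chain of myosin IIB, was at 38.5 CPM per kb in KO and 50.5 CPM per kb in Cre- control CAFs, so the order of the 2 heavy chains by level was reversed between the libraries. The log2 ratio of Myh10 was -0.39 (95% interval -0.43 to -0.35). Of 7 nonmuscle myosin II chains compared, 2 were over 2-fold lower, Myh9 and the regulatory light chain Myl9, and 0 were higher. Myl9 was only just past 2-fold, with a log2 ratio of -1.01, and its 95% interval reached inside 2-fold.

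**Figure D1:**
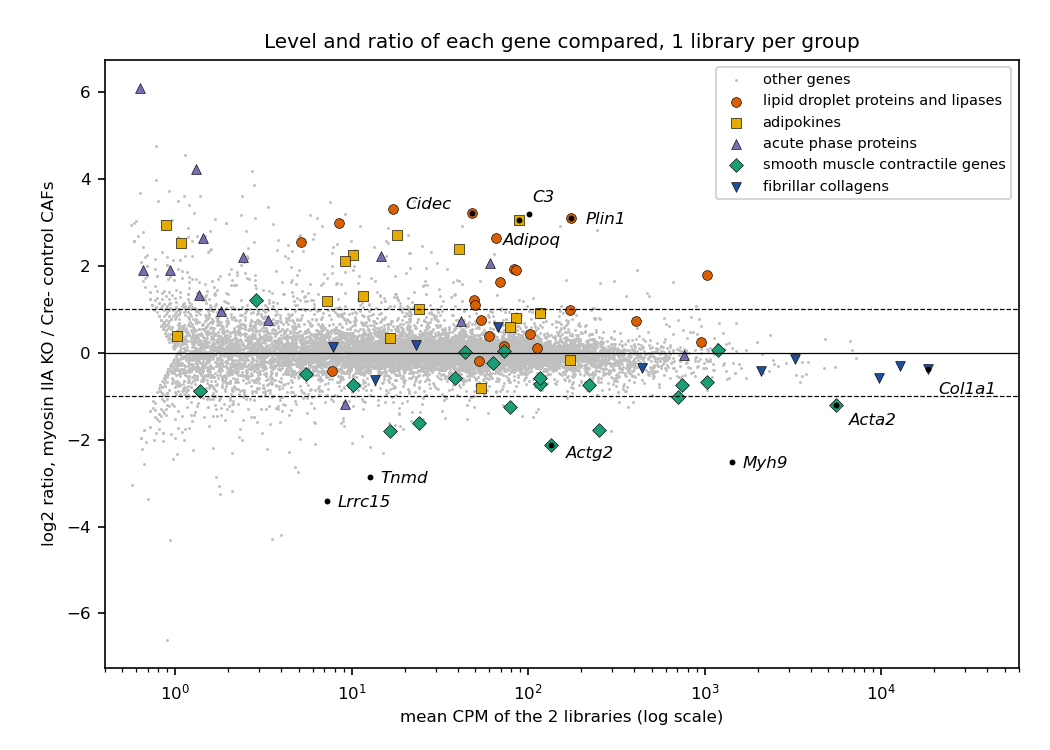
Each gene compared, with its mean CPM over the 2 libraries (x, log scale) and its log2 ratio of KO over Cre- control CAFs (y); dashed lines mark 2-fold, colored symbols are 5 gene lists, black dots are the genes labelled, and Orm1, with 0 counts in Cre- control CAFs, stands near 6 only through the 0.5 counts added. Fat genes such as Cidec and Plin1 lay above 3 on the log2 scale, Actg2 and Myh9 below -2, and the fibrillar collagens within 2-fold.

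Contractile genes of smooth muscle were lower in KO CAFs as a group. Of 24 genes listed, 21 were compared, 7 were over 2-fold lower and 1 higher, with a median log2 ratio of -0.73 beside -0.01 for all genes. Acta2 (chromosome 19, 34241090 to 34255336), the smooth muscle actin that names the αSMA-positive CAF, was at 3383 CPM in KO and 7727 CPM in Cre- control CAFs (log2 ratio -1.19, 95% interval -1.20 to -1.18). It was at 5646, 4811 and 1501 CPM in Fn1 siRNA, control siRNA and untreated PDX CAFs, so the KO level lay inside the range of cultures with myosin IIA. Actg2, the enteric smooth muscle actin, was farther apart, at 50.1 CPM in KO and 219 CPM in Cre- control CAFs (log2 ratio -2.13). Calponin Cnn1, an actin-binding protein of smooth muscle, was at 114 CPM in KO and 389 CPM in Cre- control CAFs. The smooth muscle myosin heavy chain Myh11 was at 7.38 CPM in KO and 25.6 CPM in Cre- control CAFs. The remaining members past 2-fold on the low side were integrin Itga8 (11.9 CPM in KO and 36.2 CPM in Cre- control CAFs), the myosin light chain kinase gene Mylk (log2 ratio -1.26) and Myl9 (-1.01). The 95% interval of Myl9 reached inside 2-fold. Desmin (Des), the muscle intermediate filament, was the single member over 2-fold higher, at 4.05 CPM in KO and 1.72 CPM in Cre- control CAFs. It had 112 counts in KO against 45 in Cre- control CAFs, and its 95% interval, 0.72 to 1.77, reached below 2-fold.

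Other parts of the actomyosin system differed less. Of 24 SRF and MRTF targets, 1 was over 2-fold lower and 0 higher, with a median of -0.29. That member was Fhl1, a LIM-domain protein of muscle, at 203 CPM in KO and 447 CPM in Cre- control CAFs. The cytoplasmic actins Actb and Actg1 had log2 ratios of -0.34 and -0.46, and the actin crosslinker filamin A (Flna) -0.48, each within 2-fold. Of 26 myosin II regulators compared, Mylk and Ppp1r14a, an inhibitor of myosin phosphatase, were over 2-fold lower, and the median was -0.05. Of 32 focal adhesion genes, 1 was over 2-fold lower and 1 higher. The higher one was the laminin receptor subunit Itga6, at 25.7 CPM in KO and 5.47 CPM in Cre- control CAFs, and the lower one Itga8. The fibronectin receptor subunit Itga5 had a log2 ratio of -0.72. Of 22 YAP and TEAD targets, 0 were over 2-fold lower and 1 higher, and the single member past it was the transcription factor Foxf2. Ctgf, whose exons overlap another gene over 23.2% of their length, had a log2 ratio of -0.85, Ankrd1 -0.79 and Cyr61 0.08.

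Skeletal muscle and tendon genes differed in both directions. Of 54 sarcomere genes only 9 reached 1 CPM, and 4 of these were over 2-fold lower and 0 higher. Myomesin Myom1, which links myosin filaments at the M-band, was at 4.63 CPM in KO and 20.7 CPM in Cre- control CAFs. Nebulin Neb, which runs along the thin filament, was at 2.35 CPM in KO and 10.1 CPM in Cre- control CAFs. Skeletal actin Acta1 was at 32.7 CPM in KO and 85.4 CPM in Cre- control CAFs. Of 13 defining markers of skeletal muscle cells, Acta1 and Tnnt3 passed the filter, Tnnt3 at 0.542 CPM in KO and 1.15 CPM in Cre- control CAFs. Ckm, Myh1, Myh2, Myh4, Pax7, Myod1, Myog and Myf5 had no count in either library.

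Of 24 tendon genes compared, 5 lay over 2-fold below and 3 over 2-fold above Cre- control CAFs. Tenomodulin Tnmd, a membrane glycoprotein of tendon cells (chromosome X, 133850980 to 133865577), was at 3.04 CPM in KO and 22.2 CPM in Cre- control CAFs, a log2 ratio of -2.86 (95% interval -3.22 to -2.54). In the 3 PDX cultures Tnmd was at 0.225 CPM or below, so it was highest in Cre- control CAFs, with KO CAFs between them and the PDX cultures. Scleraxis Scx, the transcription factor of tendon progenitors, was at 0.362 CPM in KO and 1.34 CPM in Cre- control CAFs. Asporin Aspn, a collagen-binding proteoglycan, was at 246 CPM in KO and 541 CPM in Cre- control CAFs. The list also ran the other way, since fibromodulin Fmod, another collagen-binding proteoglycan, was at 150 CPM in KO and 62.7 CPM in Cre- control CAFs, and lubricin Prg4 at 8.68 CPM in KO and 2.87 CPM in Cre- control CAFs. Of 17 cartilage and bone genes compared, 3 were over 2-fold higher and 0 lower. Alpl, the bone alkaline phosphatase, was at 74.7 CPM in KO and 9.83 CPM in Cre- control CAFs (log2 ratio 2.92). The osteoblast transcription factor Sp7 had 442 counts in KO against 111 in Cre- control CAFs (1.91), and Cnmd, the cartilage relative of tenomodulin, was at 6.08 CPM in KO and 1.95 CPM in Cre- control CAFs.

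**Figure D2:**
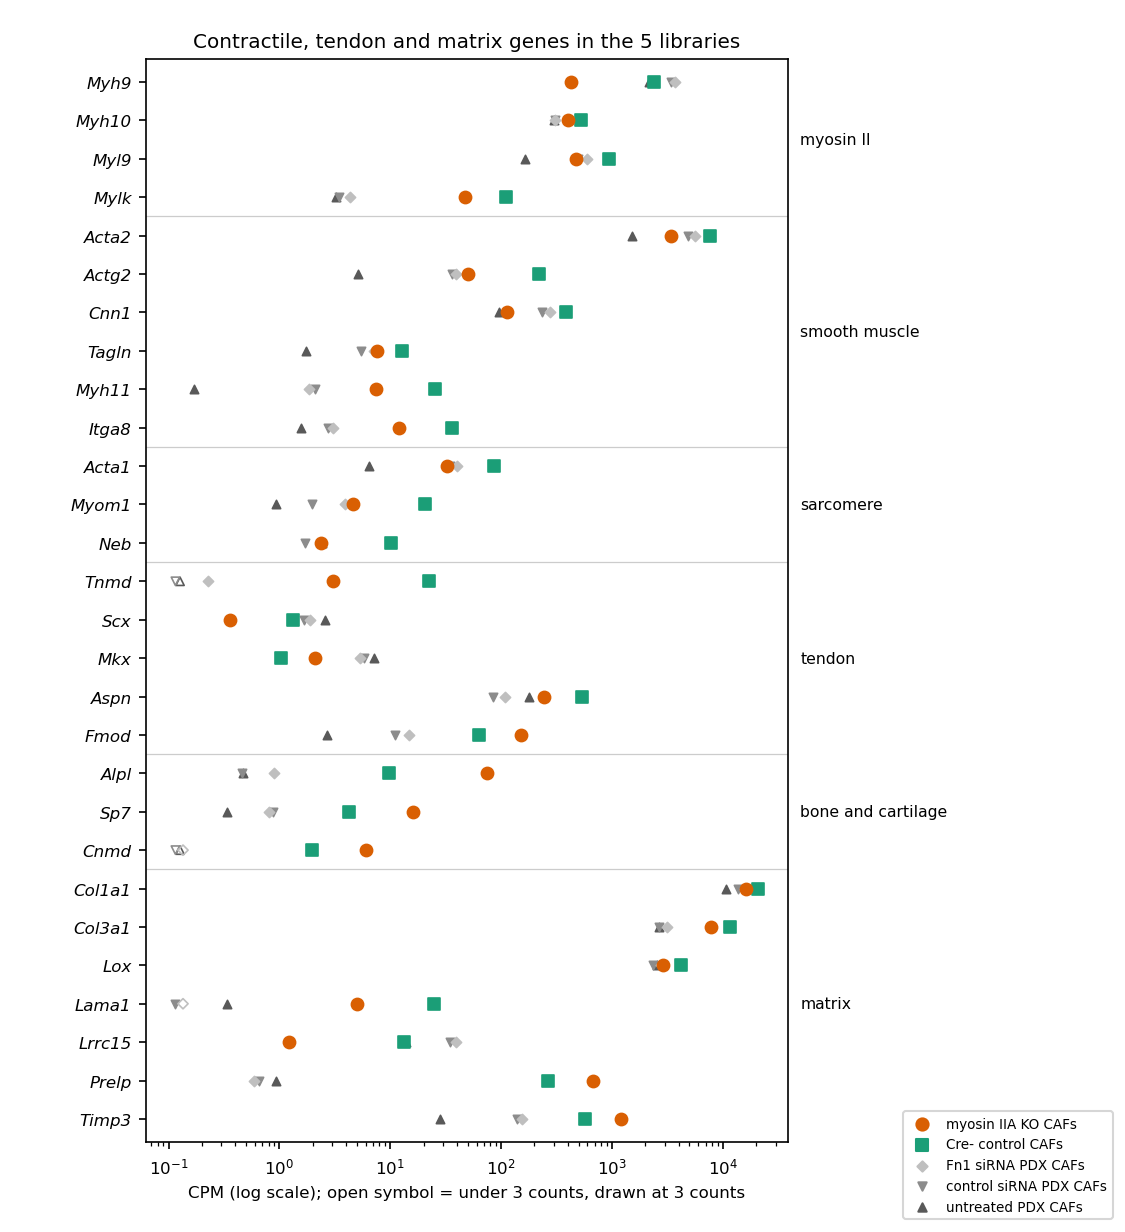
Levels of contractile, tendon, bone and matrix genes in the 5 libraries (x, CPM on a log scale; 1 library per group, no error bars; genes in rows). KO CAFs lay below Cre- control CAFs for Myh9, Actg2, Cnn1 and Tnmd and above them for Fmod, Alpl and Prelp, and Acta2 in KO CAFs lay between untreated and control siRNA PDX CAFs.

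CArG boxes were counted in the promoters of the genes on either side, since this is the sequence through which SRF and MRTF act. RefSeq promoter sequences (GRCm38.p6, 250 bases before to 50 bases after a start) were matched for 9721 of the genes compared by symbol. The box was searched as CCWWWWWWGG, with W for A or T, and no mismatch was allowed. A CArG box on either strand was in 11 of 132 promoters of genes over 2-fold lower, 8.33% (exact 95% interval 4.23 to 14.4%), in 3 of 286 of genes over 2-fold higher, 1.05%, and in 155 of all 9721, 1.59%. In the SRF and MRTF target list, where 1 of 24 genes was over 2-fold lower, the box was in 7 of 17 promoters. In the smooth muscle list, where 7 of 21 were over 2-fold lower, it was in 2 of 17. A match describes letters and not a bound site, and no test of the shares was made. The 250 bases before the start are shown for 4 of the 11 genes with the box in capitals, since these are muscle and actin-associated genes of the lists above and Lmcd1, a LIM and cysteine-rich domain protein at 8.43 CPM in KO and 26.9 CPM in Cre- control CAFs.
Myl9, chr2:156775214-156775463, plus strand: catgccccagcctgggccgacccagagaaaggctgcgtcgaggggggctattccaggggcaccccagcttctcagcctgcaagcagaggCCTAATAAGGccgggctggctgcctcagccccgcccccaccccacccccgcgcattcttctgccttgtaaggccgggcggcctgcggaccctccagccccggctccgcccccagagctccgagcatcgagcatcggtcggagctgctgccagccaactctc
Fhl1, chrX:56779433-56779682, plus strand: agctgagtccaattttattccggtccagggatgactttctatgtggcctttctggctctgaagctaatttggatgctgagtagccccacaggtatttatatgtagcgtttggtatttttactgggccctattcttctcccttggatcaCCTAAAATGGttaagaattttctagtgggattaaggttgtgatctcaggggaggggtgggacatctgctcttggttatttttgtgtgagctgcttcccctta
Acta1, chr8:123894776-123895025, minus strand: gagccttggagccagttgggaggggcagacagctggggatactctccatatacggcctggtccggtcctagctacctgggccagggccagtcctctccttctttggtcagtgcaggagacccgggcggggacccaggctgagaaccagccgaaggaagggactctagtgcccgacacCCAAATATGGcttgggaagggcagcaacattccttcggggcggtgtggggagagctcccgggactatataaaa
Lmcd1, chr6:112273508-112273757, plus strand: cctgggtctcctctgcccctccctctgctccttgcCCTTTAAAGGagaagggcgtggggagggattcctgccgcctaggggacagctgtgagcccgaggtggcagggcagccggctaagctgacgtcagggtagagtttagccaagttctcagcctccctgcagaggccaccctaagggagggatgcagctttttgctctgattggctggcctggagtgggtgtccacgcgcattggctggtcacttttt
In these windows the near end of the box was 152 bases before the start in Myl9, 93 in Fhl1, 64 in Acta1 and 206 in Lmcd1. Fhl1 has 2 starts in the table and the other held no match, and Acta2 and Cnn1 held no exact match in their windows. The Acta2 window held ccctatatgg and ccttgtttgg, each a single letter off the pattern, which the search did not count.

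Many fat genes were higher in KO CAFs, with single ratios of 8-fold and more. Of 185 genes compared over 7 fat lists, 56 were over 2-fold higher, 30.3% beside 3.29% of all genes, and 6 were over 2-fold lower, 3.24% beside 1.70%. Adipocyte genes were present in both libraries, at a higher level in KO CAFs. All 12 genes of a list of defining adipocyte markers were compared, 10 were over 2-fold higher and 0 lower, and their summed level was 4197 CPM in KO and 1243 CPM in Cre- control CAFs, with 464 to 632 CPM in PDX CAFs. In a bulk culture, fewer cells of a type and less RNA per cell cannot be told apart. The marker sum is given beside the fat lists below, and some of its genes, such as Adipoq, Cidec and Cebpa, are also members of those lists. A shared direction of the sum and those lists is therefore built in to a degree. The part of the sum in their ratios was not tested.

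Among transcription factors and coactivators of fat, Ppargc1a had the highest ratio. Of 28 compared, 6 were over 2-fold higher and 0 lower, with a median of 0.39. Ppargc1a, a coactivator of mitochondrial biogenesis and brown fat, was at 6.11 CPM in KO and 0.574 CPM in Cre- control CAFs (log2 ratio 3.37). Cebpa, which with PPARγ fixes the fat cell state, was at 467 CPM in KO and 148 CPM in Cre- control CAFs (1.66), and Mlxipl, the carbohydrate-sensing factor ChREBP, at 7.23 CPM in KO and 1.84 CPM in Cre- control CAFs. Nr1h3, the oxysterol receptor LXRα, was at 39.5 CPM in KO and 12.5 CPM in Cre- control CAFs. Pparg itself stayed within 2-fold, at 177 CPM in KO and 108 CPM in Cre- control CAFs (0.71). Its level thus differed less than those of Cebpa and of Plin1, Cidec and Adipoq below, which PPARγ is known to bind.

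Of 23 droplet proteins and lipases compared, 12 were over 2-fold higher, 11 were within 2-fold and 0 were over 2-fold lower, with a median of 1.09. Perilipin Plin1, the coat protein of fat cell droplets, was at 314 CPM in KO and 36.6 CPM in Cre- control CAFs, against 0.212 CPM or less in the 3 PDX cultures. Cidec (chromosome 6, 113424634 to 113435760), which fuses droplets, was at 86.3 CPM in KO and 9.18 CPM in Cre- control CAFs (log2 ratio 3.23, 95% interval 3.04 to 3.43), and at 0.169 CPM or less in PDX CAFs. Lgals12, a galectin on droplets, was at 31.1 CPM in KO and 3.10 CPM in Cre- control CAFs and had no count in PDX CAFs. For these genes the 5 libraries thus stood in 3 tiers, with KO highest, Cre- control in the middle and PDX CAFs at the limit of detection. By the paper's methods, the PDX tumors grew under the skin of female Nude mice and those of the KO and Cre- control strain in a fat pad. The Y-linked Ddx3y, Eif2s3y and Kdm5d were detected in KO and Cre- control CAFs and had no count in any PDX library. Mouse strain and sex thus also differed between PDX CAFs and the KO and Cre- control cultures. The part of site, mouse strain or sex in the tiers was not tested. The enzymes of lipid release were also higher, with hormone-sensitive lipase Lipe at 114 CPM in KO and 18.1 CPM in Cre- control CAFs, and Mgll and Pnpla2, both chosen after their values were seen, at log2 ratios of 1.94 and 1.64. G0s2, an inhibitor of that breakdown, was at 134 CPM in KO and 35.8 CPM in Cre- control CAFs. Lipoprotein lipase Lpl, which frees fatty acids from circulating particles, had the largest gain in CPM next to Bgn, at 1603 CPM in KO and 461 CPM in Cre- control CAFs.

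Of 39 genes of fatty acid uptake and synthesis compared, 15 were over 2-fold higher and 0 lower, but the median was 0.16, so the list held a high group and a group near the all-gene median. The high group took in the fatty acid translocase Cd36 (154 CPM in KO CAFs and a log2 ratio of 3.02), the acyl-CoA synthetase Acsl1 (430 CPM in KO and 60.5 CPM in Cre- control CAFs) and the glycerol-phosphate dehydrogenase Gpd1 (269 CPM in KO and 35.2 CPM in Cre- control CAFs). Gpat3, whose exons overlap another gene over 37.4% of their length, and Pck1, which makes glycerol backbones, had log2 ratios of 2.87 and 2.93. The fatty acid binding protein Fabp4 was at 996 CPM in KO and 320 CPM in Cre- control CAFs. The desaturase Scd1 was at 654 CPM in KO and 175 CPM in Cre- control CAFs, while its relative Scd2 was at 591 CPM in KO and 603 CPM in Cre- control CAFs. The insulin-responsive glucose transporter Slc2a4 was at 17.6 CPM in KO and 3.37 CPM in Cre- control CAFs.

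Of 17 adipokines compared, 10 were over 2-fold higher and 0 lower, with a median of 1.19. Adiponectin Adipoq (chromosome 16, 23146536 to 23158028) was at 159 CPM in KO and 18.9 CPM in Cre- control CAFs (log2 ratio 3.07, 95% interval 2.94 to 3.21), with no count in any PDX library. Leptin Lep was low in both, at 1.59 CPM in KO (44 counts) and 0.191 CPM in Cre- control CAFs (5 counts). Resistin Retn was at 16.8 CPM in KO and 3.52 CPM in Cre- control CAFs, and apolipoprotein E (Apoe) at 68.1 CPM in KO and 12.9 CPM in Cre- control CAFs. Of 31 genes of insulin and steroid signalling in fat, 7 were over 2-fold higher and 1 lower. They included the glucocorticoid-induced Ras protein Rasd1, at 13.9 CPM in KO and 1.22 CPM in Cre- control CAFs (log2 ratio 3.48, 95% interval 2.98 to 4.07), and the prolactin receptor Prlr at 10.5 CPM in KO and 1.15 CPM in Cre- control CAFs. Hsd11b1, which regenerates active glucocorticoid, was at 35.1 CPM in KO and 7.15 CPM in Cre- control CAFs. The β3-adrenergic receptor Adrb3, through which noradrenaline starts lipolysis in mouse fat, was at 27.2 CPM in KO and 4.67 CPM in Cre- control CAFs, and its exons overlap another gene over 24.9% of their length. Of 22 genes of brown fat and fat oxidation, 4 were over 2-fold higher and 0 lower, among them the potassium channel Kcnk3 at 11.9 CPM in KO and 1.57 CPM in Cre- control CAFs.

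**Figure D3:**
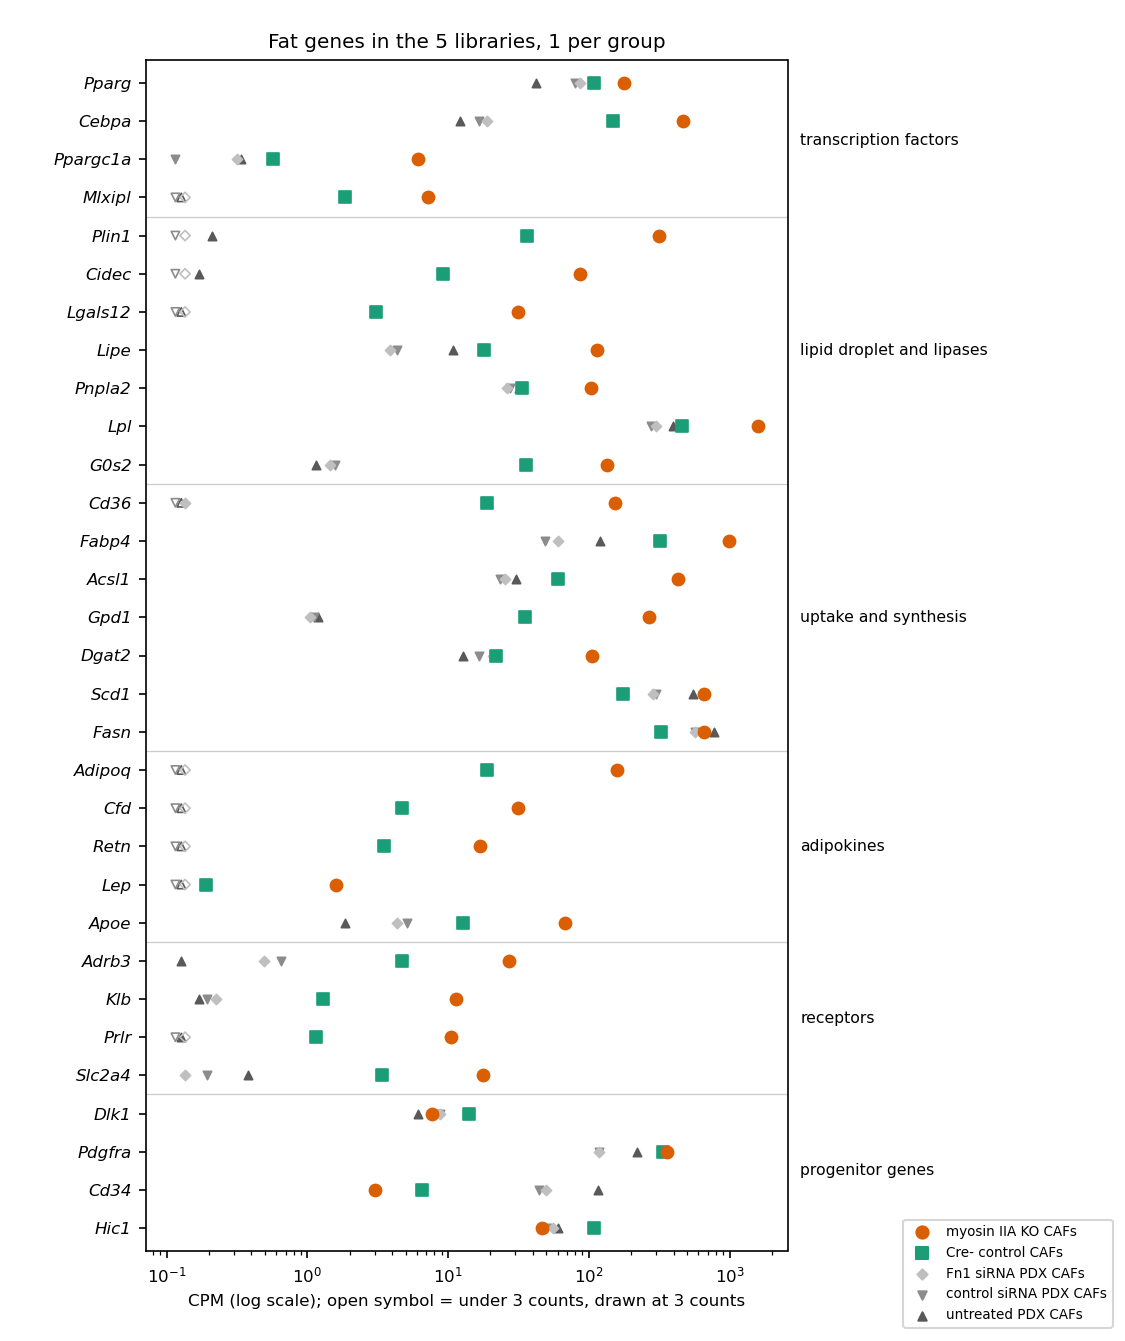
Levels of fat genes in the 5 libraries (x, CPM on a log scale; 1 library per group, no error bars; open symbols are under 3 counts and drawn at the level of 3 counts). KO CAFs lay highest for Plin1, Cidec, Adipoq and Klb, with Cre- control CAFs between them and the PDX cultures, while Pdgfra was nearly the same in KO and Cre- control CAFs.

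Progenitor genes of fat did not share this direction. Of 25 compared, 2 were over 2-fold higher and 5 lower, 14 lay above 0 and 11 below, and the median was 0.05. The 2 higher ones had few counts, Cd24a 48 in KO against 10 in Cre- control CAFs and Icam1 39 against 10. Ly6a, a progenitor surface protein, was at 246 CPM in KO and 174 CPM in Cre- control CAFs. The Wnt antagonist Sfrp4 was at 7.96 CPM in KO and 24.6 CPM in Cre- control CAFs, the transcription factor Hic1 of quiescent mesenchymal progenitors at 46.6 CPM in KO and 109 CPM in Cre- control CAFs, and the progenitor surface protein Cd34 had 83 counts in KO against 171 in Cre- control CAFs. Pdgfra, a receptor on fibroblasts and fat progenitors alike, was at 360.5 CPM in KO and 338 CPM in Cre- control CAFs. Of 15 fibroblast-defining genes, all were compared, 0 were over 2-fold higher and 1, lumican Lum, was over 2-fold lower. Their summed level was 41605 CPM in KO and 53481 CPM in Cre- control CAFs.

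Complement and acute phase genes also held high ratios. Of 15 complement components compared, 4 were over 2-fold higher and 1 lower. C3 (chromosome 17, 57203970 to 57228136), the central component from which all pathways continue, was at 181 CPM in KO and 19.7 CPM in Cre- control CAFs (log2 ratio 3.20, 95% interval 3.07 to 3.33), with 0.974 to 4.50 CPM in PDX CAFs. C4b, which has a near-identical copy and is therefore uncertain, was at 509 CPM in KO and 205 CPM in Cre- control CAFs. Cfd, the serine protease adipsin, is made by fat cells and is also counted among the adipokines, and it was at 31.2 CPM in KO and 4.71 CPM in Cre- control CAFs. Factor B (Cfb) was at 2.21 CPM in KO and 0.727 CPM in Cre- control CAFs, with exons that overlap another gene over 79.5% of their length. In the alternative pathway, adipsin cleaves factor B, which then forms a convertase with a fragment of C3. Of 5 regulators compared, the C1 inhibitor Serping1 (72.7 CPM in KO and 30.9 CPM in Cre- control CAFs) and clusterin Clu (8.17 CPM in KO and 3.14 CPM in Cre- control CAFs) were over 2-fold higher. The lectin Colec10 was the component on the low side, with 3 counts in KO against 27 in Cre- control CAFs (log2 ratio -3.05).

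Of 14 acute phase genes compared, 9 were over 2-fold higher and 1 lower, with a median log2 ratio of acute phase proteins of 1.90, also with Orm1 set to its bound, and of 0.74 with a filter of 10 CPM. Haptoglobin Hp, which binds free hemoglobin, was at 98.2 CPM in KO and 23.4 CPM in Cre- control CAFs. The lipopolysaccharide-binding protein Lbp was at 24.2 CPM in KO and 5.17 CPM in Cre- control CAFs, and hemopexin Hpx at 3.98 CPM in KO and 0.842 CPM in Cre- control CAFs. Several others were near the limit of detection. Saa3, a serum amyloid A that mouse fat also makes, had 69 counts in KO against 3 in Cre- control CAFs (log2 ratio 4.24, 95% interval 2.84 to 6.75). Orm1 had 35 counts in KO against 0 in Cre- control CAFs, at least 11.0-fold higher against a floor of 3 counts. The pentraxin Ptx3, the highest member by CPM per kilobase, did not share the direction, at 744 CPM in KO and 773 CPM in Cre- control CAFs.

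Of 8 CXC chemokines compared, 4 were over 2-fold higher and 0 lower, and 1 of the 4 had the whole interval beyond 2-fold. Cxcl5, which attracts neutrophils, was at 16.3 CPM in KO and 5.36 CPM in Cre- control CAFs, and Cxcl1, which does the same, at 43.5 CPM in KO and 20.6 CPM in Cre- control CAFs. Cxcl12, the ligand of CXCR4, was at 1147 CPM in KO and 747 CPM in Cre- control CAFs. Cxcl1 was at 151, 117 and 7.79 CPM in Fn1 siRNA, control siRNA and untreated PDX CAFs, so both transfected cultures lay above KO CAFs. Of 9 CC chemokines and colony stimulating factors, 0 were over 2-fold higher and 1, Ccl8, lower. Of 40 interferon-stimulated genes, 1 was over 2-fold higher and 0 lower with a median of -0.03. Of 23 NF-kB response genes, 1 was over 2-fold higher and 0 lower, the adhesion molecule Icam1 at 1.41 CPM in KO and 0.383 CPM in Cre- control CAFs. In both lists the interval of that gene reached inside 2-fold. Among 23 MHC class I genes, H2-Q6 and H2-Q7 were over 2-fold higher, at log2 ratios of 2.57 and 1.58, and these are near-identical copies whose counts are uncertain. H2-D1, at 1178 CPM in KO and 685 CPM in Cre- control CAFs, was among the 10 largest gains in CPM. The interleukin-4 receptor chain Il4ra was at 62.2 CPM in KO and 160 CPM in Cre- control CAFs.

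C/EBP factors act in both fat and acute phase gene expression, and bind sequences that include TTGCNNAA. This motif was searched on both strands of the same promoters. It was in 38 of 286 promoters of genes over 2-fold higher, 13.3% (exact 95% interval 9.58 to 17.8%), in 6 of 132 of genes over 2-fold lower, 4.55% (1.69 to 9.63%), and in 942 of all 9721, 9.69%. In the acute phase list it was in 7 of 11 promoters, in the complement component list in 4 of 8, and in the droplet and lipase list in 3 of 21. The interval of the share among higher genes reached below the share over all genes. A kappaB site, also searched on both strands, was in 28 of 286 promoters of genes over 2-fold higher, 9.79% (6.60 to 13.8%), in 9 of 132 of genes over 2-fold lower, 6.82%, and in 610 of all 9721, 6.28%. Overlaps between motifs were not removed. The 250 bases before the start are shown for C3 and Saa3 of the complement and acute phase lists and for Cidec and Plin1 of the fat lists, with the motif in capitals.
C3, chr17:57228137-57228386, minus strand: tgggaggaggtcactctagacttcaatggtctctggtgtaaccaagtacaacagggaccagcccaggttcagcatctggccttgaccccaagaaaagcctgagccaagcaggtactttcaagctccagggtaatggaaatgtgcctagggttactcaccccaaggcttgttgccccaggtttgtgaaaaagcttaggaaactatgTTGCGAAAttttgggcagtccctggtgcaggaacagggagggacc
Saa3, chr7:46715677-46715926, minus strand: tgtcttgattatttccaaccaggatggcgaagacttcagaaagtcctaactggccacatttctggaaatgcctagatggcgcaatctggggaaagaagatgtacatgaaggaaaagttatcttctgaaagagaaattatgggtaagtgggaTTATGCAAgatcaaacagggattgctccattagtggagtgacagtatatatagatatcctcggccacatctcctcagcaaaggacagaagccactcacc
Cidec, chr6:113434765-113435014, minus strand: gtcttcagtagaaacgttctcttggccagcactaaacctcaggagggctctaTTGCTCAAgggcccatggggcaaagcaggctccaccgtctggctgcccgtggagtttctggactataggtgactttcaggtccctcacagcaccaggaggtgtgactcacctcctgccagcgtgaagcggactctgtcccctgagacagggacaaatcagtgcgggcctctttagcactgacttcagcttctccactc
Plin1, chr7:79732777-79733026, minus strand: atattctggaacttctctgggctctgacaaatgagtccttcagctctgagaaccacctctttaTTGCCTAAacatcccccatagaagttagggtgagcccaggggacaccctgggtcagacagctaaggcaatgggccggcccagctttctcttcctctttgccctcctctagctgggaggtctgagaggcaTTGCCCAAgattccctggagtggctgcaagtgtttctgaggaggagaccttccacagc
The near end of the motif was 38 bases before the start in C3, 92 in Saa3 and 191 in the Cidec window. Cidec has 2 starts in the table and the other held no match, and Plin1 held the motif in 2 places, 51 and 180 bases before the start. Adipoq held no match in its window, and neither C3 nor Saa3 held a kappaB site.

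Matrix genes had small ratios at very high levels. Among the 10 largest losses in CPM, 3 were fibrillar collagens, the main fiber proteins of connective tissue. Col1a1 was at 16058 CPM in KO and 20909 CPM in Cre- control CAFs, Col3a1 at 7810 CPM in KO and 11573 CPM in Cre- control CAFs and Col1a2 at 11521 CPM in KO and 14183 CPM in Cre- control CAFs. Of 10 fibrillar collagens compared, 0 were past 2-fold in either direction, and the median was -0.32. Lysyl oxidase Lox, which crosslinks collagen, and the collagen chaperone Serpinh1 were also among the 10 largest losses, with log2 ratios of -0.53 and -0.52. Of 31 collagen processing and crosslinking enzymes, 2 were over 2-fold lower and 1 higher. They were the procollagen peptidase Adamts14 with 129 counts in KO against 346 in Cre- control CAFs, the lysyl hydroxylase Plod2 at 109 CPM in KO and 225 CPM in Cre- control CAFs, and on the high side Pcolce2 (1.30). Fibronectin Fn1, a matrix scaffold protein, was at 6905 CPM in KO and 7521 CPM in Cre- control CAFs (log2 ratio -0.12).

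Single matrix genes were farther apart than their families. Lrrc15, a leucine-rich repeat membrane protein of activated fibroblasts, was at 1.23 CPM in KO and 13.2 CPM in Cre- control CAFs, and at 13.9 to 39.5 CPM in PDX CAFs, so the KO library alone stood low. The laminin chain Lama1 was at 4.99 CPM in KO and 24.9 CPM in Cre- control CAFs, with 0.339 CPM or less in PDX CAFs, while Lamb3, another laminin chain, was at 6.87 CPM in KO and 1.45 CPM in Cre- control CAFs. Of 25 proteoglycans compared, 3 were over 2-fold higher and 2 lower. Prelp, a heparin- and collagen-binding member, was at 681 CPM in KO and 262 CPM in Cre- control CAFs, and biglycan Bgn, with the largest gain of all genes in CPM, at 7307 CPM in KO and 6089 CPM in Cre- control CAFs. Of 25 matricellular proteins, 2 were over 2-fold lower and 0 higher, and periostin Postn was at 2675 CPM in KO and 4286 CPM in Cre- control CAFs. Among 22 matrix metalloproteinases and inhibitors, Timp3 was the single member past 2-fold, at 1218 CPM in KO and 575 CPM in Cre- control CAFs, and its exons overlap another gene over 21.3% of their length.

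Among PDGF genes, the ligand Pdgfd was at 3.91 CPM in KO and 27.0 CPM in Cre- control CAFs (log2 ratio -2.78, 95% interval -3.10 to -2.50), and the receptors Pdgfra and Pdgfrb had ratios of 0.09 and -0.09. Of 18 FGF genes compared, 4 were over 2-fold higher and 0 lower, with a median of 0.44, and 2 of the 4 had the whole interval beyond 2-fold. The FGF21 coreceptor Klb was at 11.4 CPM in KO and 1.30 CPM in Cre- control CAFs (3.12), and Fgf10, a ligand known to promote fat formation, at 10.9 CPM in KO and 3.10 CPM in Cre- control CAFs. Of 14 IGF genes compared, 2 were over 2-fold higher and 2 lower, with a median of -0.40. The growth factor Igf1 was at 54.8 CPM in KO and 14.4 CPM in Cre- control CAFs, and the Tie2 ligand Angpt1 at 38.0 CPM in KO and 13.0 CPM in Cre- control CAFs, while its relative Angpt2 was at 16.6 CPM in KO and 33.9 CPM in Cre- control CAFs. The neurotrophin receptor Ntrk3 had the lowest ratio of any list member, at 0.398 CPM in KO and 7.58 CPM in Cre- control CAFs (-4.19), and at 8.47, 10.0 and 15.4 CPM in Fn1 siRNA, control siRNA and untreated PDX CAFs. The KO library alone thus stood low for Ntrk3, from 11 counts against 198 in Cre- control CAFs.

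Of 37 Wnt genes compared, 6 were over 2-fold higher and 3 lower, of which 1 and 2 had the whole interval beyond 2-fold. The secreted antagonists went both ways, with Sfrp1 at 387 CPM in KO and 126 CPM in Cre- control CAFs, Sfrp4 lower as given above, and Dkk3 at 3.07 CPM in KO and 8.11 CPM in Cre- control CAFs. The Wnt feedback genes Axin2 and Notum were low in both libraries, with log2 ratios of 1.67 and 1.70, and the exons of Notum overlap another gene over 38.1% of their length. Of 32 TGF-beta genes, 2 were over 2-fold higher and 1 lower. The inhibitory Smad7 was at 131 CPM in KO and 56.6 CPM in Cre- control CAFs, Inhbb, an activin subunit, at 38.2 CPM in KO and 17.7 CPM in Cre- control CAFs, and the ligands Tgfb2 and Tgfb3 had log2 ratios of -0.67 and -0.63. The third gene past 2-fold in that list was Cilp. Of 28 BMP genes, 2 were over 2-fold higher and 2 lower, among them the inhibitor of differentiation Id4 at 133 CPM in KO and 63.1 CPM in Cre- control CAFs. The intervals of all these BMP genes reached inside 2-fold. Of 13 cadherins and catenins, Cdh3 was over 2-fold lower, at 1.30 CPM in KO and 8.19 CPM in Cre- control CAFs, and Cdh11, the mesenchymal cadherin, was at 282 CPM in KO and 275 CPM in Cre- control CAFs.

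**Figure D4:**
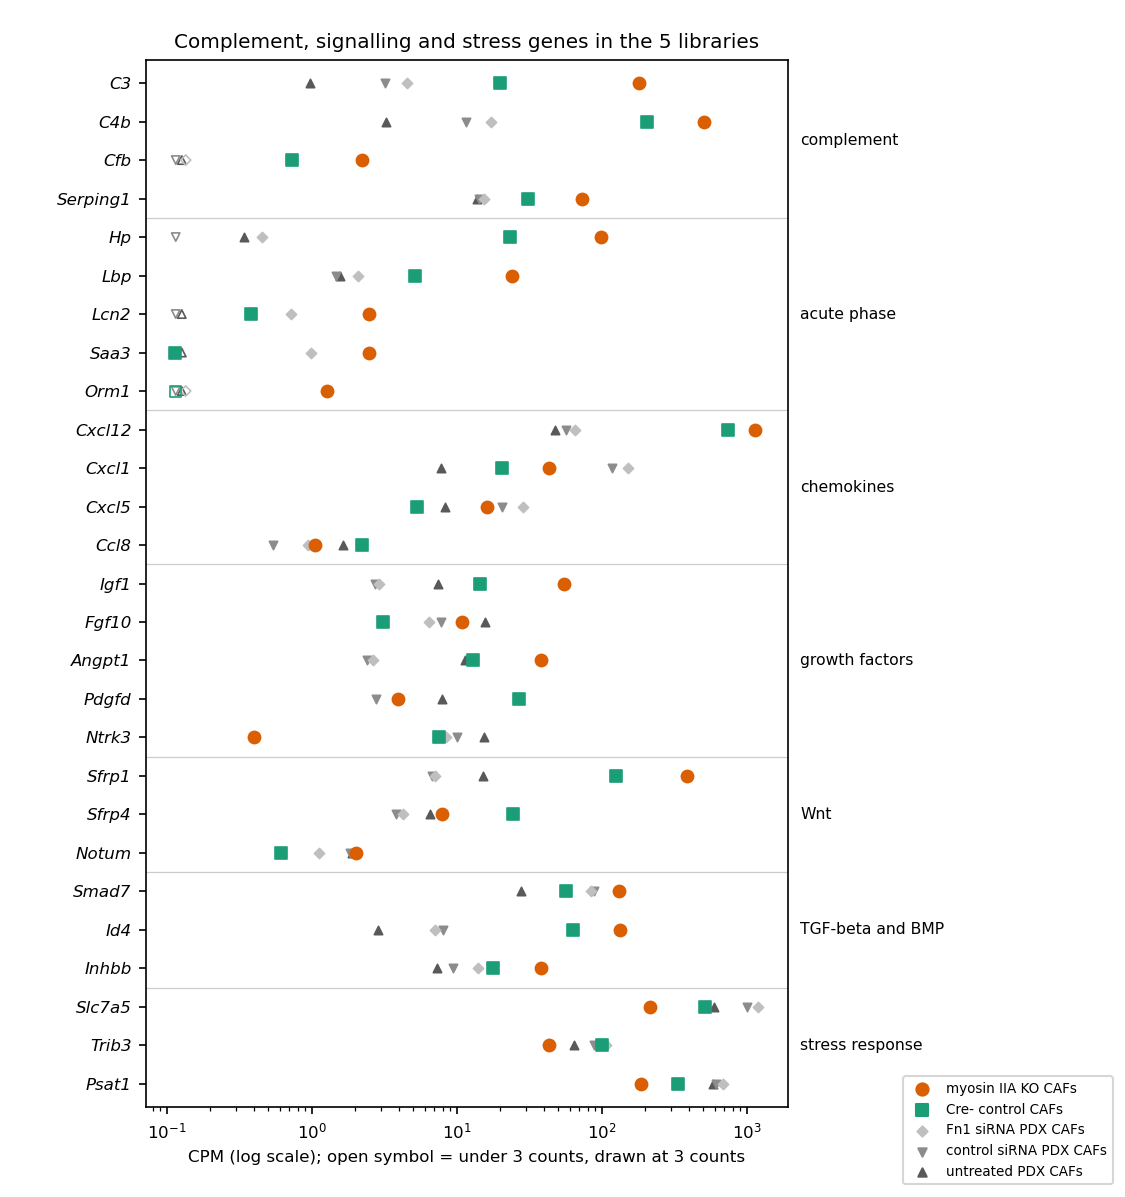
Levels of complement, acute phase, chemokine, growth factor and stress genes in the 5 libraries (x, CPM on a log scale; 1 library per group, no error bars; open symbols are under 3 counts and drawn at the level of 3 counts). KO CAFs lay above the other 4 libraries for C3, Hp and Igf1 and below them for Ntrk3 and Trib3.

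Among lists of cell state, the stress response list had the lowest median. Of 35 genes of the unfolded protein and integrated stress responses, 2 were over 2-fold lower and 0 higher, and the median was -0.59. The 2 were the amino acid transporter Slc7a5, at 216 CPM in KO and 517 CPM in Cre- control CAFs, and Trib3, a target of ATF4, at 43.4 CPM in KO and 99.7 CPM in Cre- control CAFs. The endoplasmic reticulum chaperone Hspa5 had a log2 ratio of -0.60 and Shmt2, an enzyme of serine and folate metabolism, -0.85. Of 35 replication and 43 mitosis and cytokinesis genes, 0 passed 2-fold, with medians of -0.12 and -0.13. Of 30 p53 targets and 30 Hox and positional genes, 0 passed 2-fold as well. Of 14 mitochondrially encoded genes compared, 2 were over 2-fold higher and 0 lower with a median of 0.66, and the mitochondrial share of all counts was 1.55% in KO against 1.04% in Cre- control CAFs.

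**Figure D5:**
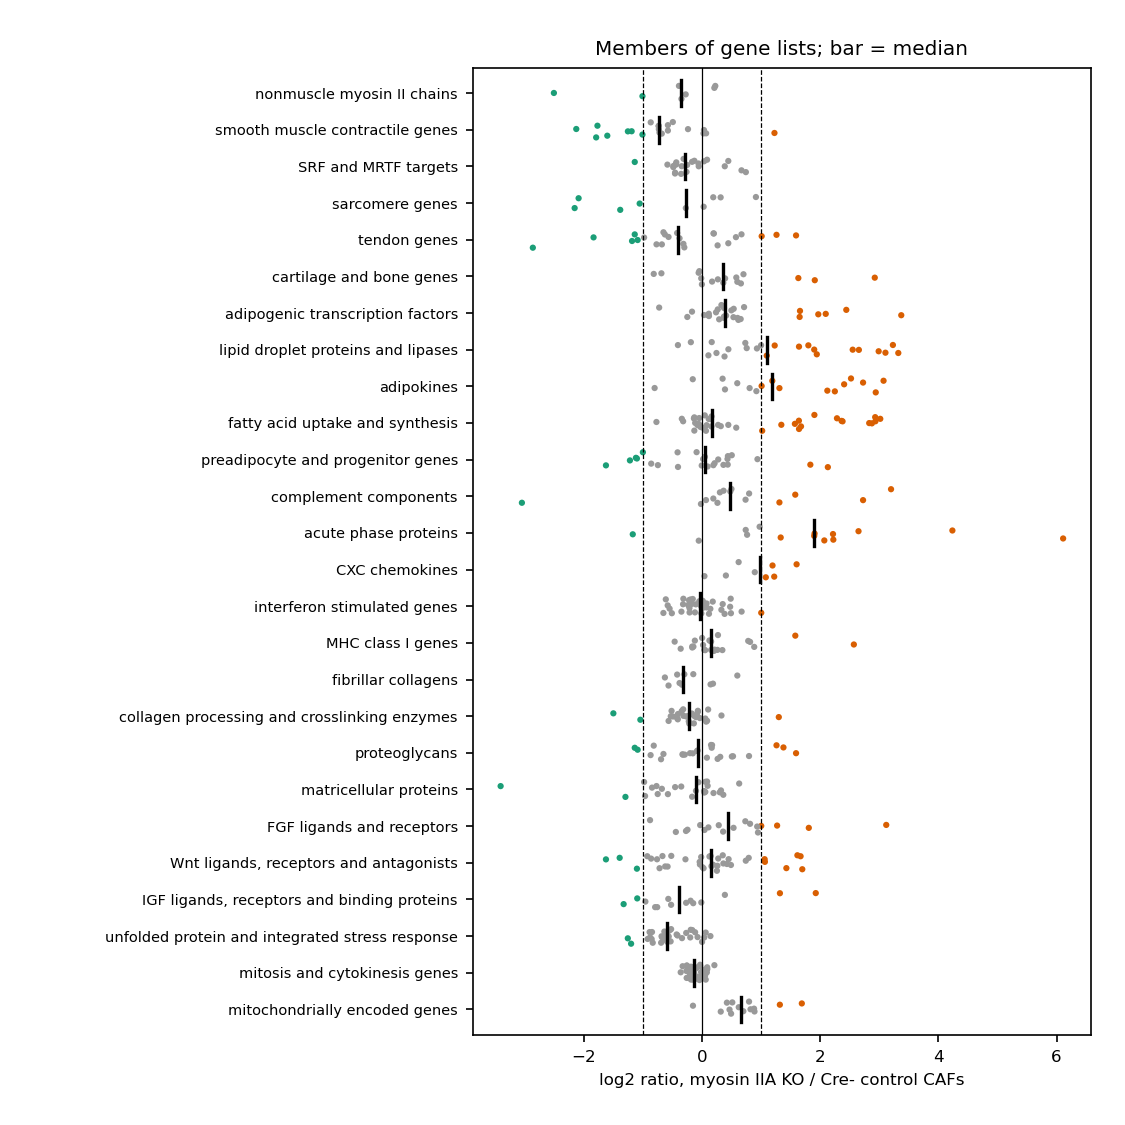
Log2 ratios of KO over Cre- control CAFs for the members of 26 lists (points, with a random vertical shift; orange, over 2-fold higher; green, over 2-fold lower; gray, within 2-fold; black bar, median). The medians of the droplet and lipase, adipokine and acute phase lists were 1.09, 1.19 and 1.90, and those of the smooth muscle and stress response lists -0.73 and -0.59, and the point near 6 is Orm1, placed by the 0.5 counts added.

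Markers of blood, vessel and epithelial cells were few, and their summed levels were similar in both libraries. Of 20 leukocyte markers 4 were compared, of 12 endothelial markers 3 and of 18 epithelial markers 2, with summed levels of 14.9, 15.8 and 15.7 CPM in KO and 12.7, 14.9 and 14.3 CPM in Cre- control CAFs. Lyz2, with 39 counts in KO against 18 in Cre- control CAFs, was over 2-fold higher, and the other 3 leukocyte markers were within 2-fold. Of the endothelial and epithelial markers compared, 0 passed 2-fold. Ptprc, Cldn5 and Krt8 had no count in either library. The Y-linked Ddx3y had a log2 ratio of 0.15.

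Ratios between 2 cultures without a deletion were taken from control siRNA over untreated PDX CAFs. These share no library with the comparison above but include a transfection. They are not known to come from different mice, so the pair does not measure differences between mice or outgrowths. There, of 13125 genes, 391 were over 2-fold higher, 2.98%, and 359 over 2-fold lower, 2.74%. Of 20 smooth muscle genes compared there, 12 were over 2-fold higher and 0 lower, with a median of 1.28, a median farther from 0 than that of -0.73 between KO and Cre- control CAFs. Of 17 droplet and lipase genes compared there, 0 were over 2-fold higher and 1 lower, with a median of -0.19. Cre- control and untreated PDX CAFs, also without a deletion, differed in the summed defining adipocyte markers, at 1243 and 632 CPM. Their summed droplet and lipase lists were at 2486 and 2336 CPM. Between control siRNA and untreated PDX CAFs, of 35 stress response genes, 2 were over 2-fold higher and 0 lower.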

How the data were processed

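RNA was sequenced from 5 mouse CAF cultures, 1 library each, of which the myosin IIA KO and Cre- control cultures were compared. The authors deposited 1 table of read counts per gene for 54636 genes on mm10, with whole-number counts that were not normalized. Aligner, counting tool, annotation release and strand: not given in the sources used here. Reads of a gene and of an overlapping or antisense gene therefore cannot be told apart. Of the gene IDs, 53548 had the same coordinates in a GENCODE annotation (98.3%), which gave the share of each gene's exons that overlap another gene, computed with bedtools 2.31.1.

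TMM factors from edgeR 4.0.16 (R 4.3.3) scaled the libraries, over all 5 libraries for the CPM printed and over both libraries of a comparison for the log2 ratios. Rows without a gene name stayed in the comparison. They held 0.0471% of the counts of the KO and 0.0422% of those of the Cre- control library. Genes at 1 CPM or more in either library were compared, with 0.5 counts added before the log2 ratio and exact conditional binomial intervals at 95%, computed in Python 3.11.15 with numpy 2.4.6, pandas 2.3.3 and scipy 1.17.1 and drawn with matplotlib 3.10.9. The ratio and interval code was tested on simulated data. A count of 0 allows up to 3 counts. PCR reads without molecular identifiers are not independent molecules, so intervals and floors cover counting error only. With 1 library per group no count model was fitted and no p-value is given.

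The 67 gene lists and the genes described were chosen with earlier results of these data known, and are no independent support of a direction. Of 1738 listed symbols 1736 were matched, 9 by a synonym. Genes were named by a rule: the 6 markers, the 15 coding genes at 10 CPM or more with the largest ratio in each direction, up to 6 members per list farthest from 0, up to 3 per list with the highest CPM per kilobase, and the 10 largest gains and losses in CPM. Plots also show list members outside that rule. Promoters came from RefSeq (GRCm38.p6). Alternatives were other scalings (DESeq2 1.42.0 size factors among them), filters, added counts, coding genes alone and members without exon overlap.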

Additional observations from a re-analysis of the deposited data

How the results depend on the processing

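No paired analysis was possible because each group was 1 library, and no replicate could be left out. The 439 genes over 2-fold higher and 226 genes over 2-fold lower were 3775 and 2615 with no filter, 161 and 73 with a filter of 10 CPM, and 223 and 83 where the whole 95% interval had to lie beyond 2-fold. The first of these takes in genes with a handful of counts and the second tests fewer genes. Scaling by DESeq2 size factors gave 452 and 220, by library totals 508 and 197, by the upper quartile 434 and 233, 5 counts added gave 375 and 198, and protein-coding genes alone 379 and 179. The Myh9 log2 ratio was -2.51, and -2.43 with library totals, under which the median of all genes stood at 0.07.

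Of the values of named genes under the alternatives, 174 moved beyond their counting interval and 3448 did not, 154 of the 174 with library totals, and 0 changed sign among called values. The median log2 ratio of Schwann cell markers, 0.19, became -0.0034 with no filter and -0.073 with a filter of 10 CPM. Another 29 list medians moved, 14 of them with no filter and 12 with a filter of 10 CPM, and 502 did not. With a filter of 10 CPM, the median log2 ratio of acute phase proteins was 0.74 in place of 1.90, the median log2 ratio of sarcomere genes -1.38 in place of -0.27 and the median log2 ratio of complement components 0.74 in place of 0.48. Without members whose exons overlap another gene by 20% or more, the single member past 2-fold of the metalloproteinase list, Timp3, was lost. With a filter of 10 CPM a CArG box was in 5 of 44 lower genes (11.4%) and 0 of 106 higher genes. A kappaB site was then in 9 of 106 higher genes (8.49%) and 6 of 44 lower genes (13.6%), which turns round the order at 1 CPM.

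Depth limits genes near 1 CPM: of 3607 genes under 10 CPM in both libraries, 11.9% were past 2-fold in either direction, against 2.02% of the 2325 at 100 CPM or more. Intervals do not cover differences between cultures, mice or preparations, which 1 library per group cannot measure.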

Other observations

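Some genes were at or near the limit of detection in 1 of the 2 libraries. In KO CAFs, 11 genes reached 1 CPM with 3 or fewer counts in Cre- control CAFs, and 4 did the reverse. Saa3, Orm1 and Colec10 of these are described above. The choline dehydrogenase Chdh had 61 counts in KO against 2 in Cre- control CAFs. Transferrin Trf, the iron carrier of serum, had 41 counts in KO against 2 in Cre- control CAFs, and the carboxylesterase Ces1d 48 in KO against 3 in Cre- control CAFs. Hcar2, a receptor that restrains lipolysis in fat cells, had 33 counts in KO against 2 in Cre- control CAFs. Aldh1a2, which makes retinoic acid, had 0 counts in KO against 47 in Cre- control CAFs, at least 16.6-fold lower against a floor of 3 counts in the KO library. The neuronal phosphatase Ptpn5 had 3 counts in KO against 34 in Cre- control CAFs, while the 3 PDX cultures were at 26.8 to 42.6 CPM.

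By class of gene, 379 of 11919 protein-coding genes were over 2-fold higher and 179 lower, against 19 and 6 of 213 antisense genes, 10 and 7 of 212 lincRNAs and 13 and 15 of 460 processed pseudogenes. The antisense genes overlap other genes by construction, so their counts are uncertain. Of 1242 compared genes that belong to a list, 125 were over 2-fold higher and 51 lower, and of 12084 in no list, 314 were higher and 175 lower, so most genes past 2-fold lay outside the lists described.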
